A study of Mus musculus with 10 samples.

Results

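The genes described here are 37 hepatic stellate cell and extracellular matrix genes, chosen by name: 5 fibrillar collagen chains, 7 other collagen chains, 10 matrix glycoproteins and proteoglycans, 7 matrix enzymes and inhibitors, and 8 genes of signals, receptor and cell state. All were found among the 15126 genes listed in an RNA-seq table of *db/db* mouse livers. Their levels are described in the 5 livers of the AAV8-Control group. These were *db/db* mice, which lack a working leptin receptor and are obese and diabetic. They were 10 weeks old and had received adeno-associated virus serotype 8 encoding eGFP, a green fluorescent protein, with livers taken 5 weeks later. The promoter that drove the vector is not given in the sources used here. All values given here come from this group alone. Sample labels also mention primary hepatocytes and adenovirus, whereas their source is liver, and markers of non-hepatocyte cells were present as described for the marker lists. Nothing in the labels names a pool, so each library is called a liver. All values are a description of these livers, and no test between conditions is given.

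Hepatic stellate cells lie between hepatocytes and the sinusoidal endothelium, where at rest they store vitamin A as retinyl esters. In injured liver they can turn into contractile myofibroblasts that make fibrillar collagen, the main scar protein. Matrix in the healthy liver is sparse and is set by secretion, by crosslinking, and by proteases and their inhibitors, and hepatocytes and endothelial cells make part of it too. RNA of whole liver mixes all these cells, so fewer cells of a type and less RNA per cell cannot be told apart.

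Several chains of fibrillar collagen and of collagen VI, the beaded filament around cells, shared AAV8-Control replicate 2 as their highest liver. For *Col3a1*, *Col1a2*, *Col6a2* and *Col6a1*, chosen after values were seen, a stretch of the 250 bases before each RefSeq start is shown, namely the longest that no annotated exon covers. The sequences are from RefSeq on GRCm38.p6 and run 5′ to 3′ on the gene's own strand. Capitals mark matches to 3 promoter elements, searched on both strands. The CCAAT box was searched by the letters in its name. The TATA box was searched as TATAAA. The GC box was searched as GGGCGG, which reads CCGCCC when it lies on the other strand. No match to one overlaps a match to another in these stretches.
Col3a1: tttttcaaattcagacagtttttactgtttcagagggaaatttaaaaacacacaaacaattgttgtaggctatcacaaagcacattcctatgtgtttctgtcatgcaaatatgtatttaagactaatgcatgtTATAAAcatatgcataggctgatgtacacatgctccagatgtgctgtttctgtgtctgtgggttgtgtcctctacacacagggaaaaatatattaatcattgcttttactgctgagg
Col1a2: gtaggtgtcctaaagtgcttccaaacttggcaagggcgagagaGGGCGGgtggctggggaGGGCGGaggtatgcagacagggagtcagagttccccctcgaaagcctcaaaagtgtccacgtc
Col6a2: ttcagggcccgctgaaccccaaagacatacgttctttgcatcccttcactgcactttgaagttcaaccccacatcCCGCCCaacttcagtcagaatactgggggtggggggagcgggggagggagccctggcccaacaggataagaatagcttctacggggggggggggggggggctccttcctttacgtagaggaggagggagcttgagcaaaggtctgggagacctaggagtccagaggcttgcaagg
Col6a1: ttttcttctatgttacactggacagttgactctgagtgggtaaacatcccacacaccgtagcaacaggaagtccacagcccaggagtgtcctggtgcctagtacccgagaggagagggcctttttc
The *Col3a1* stretch is chr1:45311288-45311537 on the forward strand, 250 bases that end at the base before the start, and holds 1 TATAAA. The *Col1a2* stretch, chr6:4505370-4505492 on the forward strand, covers 123 bases from 248 to 126 before the RefSeq start and holds 2 GGGCGG. For *Col6a2* the stretch is chr10:76623631-76623880 on the reverse strand, which ends at the base before the outer of 2 RefSeq starts and holds 1 CCGCCC. The *Col6a1* stretch, chr10:76726169-76726294 on the reverse strand, covers 126 bases from 250 to 125 before the RefSeq start and holds no match. The RefSeq starts of *Col1a2* and *Col6a1*, and the inner one of *Col6a2*, lie inside the genes as GENCODE M21 draws them, so the bases nearest to those starts are not shown, and the stretch of that inner start is the last 24 bases of the one printed. So the 4 printed stretches share none of these letter patterns throughout, which says nothing of the bases not shown. *Col1a2* did hold CCAAT in the span from 250 before to 50 after its start. No promoter sequence was available for *Col1a1*. In windows of 300 bases, from 250 before to 50 after a start, CCAAT was in 37.4%, TATAAA in 13.6% and GGGCGG in 35.7% of all 32851 windows. Of the 28 windows that matched 25 members, 11 held CCAAT (39.3%), 2 TATAAA (7.14%) and 19 GGGCGG (67.9%). *Col6a2*, *Hgf* and *Col18a1* had 2 windows each. The windows of *Col4a1* and *Col4a2* overlap, as do the 2 of *Col6a2*, so a match can count more than once. A match is a string of letters and not a site shown to be bound.

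As recovered from the CPM values, the libraries held 19499795 to 35498596 reads, so 1 read stood for 0.0282 to 0.0513 CPM. CPM are a gene's reads scaled to a fixed total per library, and which reads make up that total is not given. Members ranged widely in depth, from 5 to 12 reads per library for *Timp1* to 22697 to 41519 for *Fn1*. Of the 37 members, 35 averaged 1 CPM or more, as did 11041 of all genes listed, and genes at or above that average are called expressed. The other 2 members were *Timp1* and *Lox*.

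Levels are ranked between genes per kilobase of the longest coding transcript. On that scale *Col18a1*, the chain of collagen XVIII whose end is released as endostatin, had a mean level of 147 CPM per kilobase, and *Fn1*, fibronectin, which is also a plasma protein made by hepatocytes, had 142. Their ranges over livers, 135 to 177 and 132 to 160, overlapped. The small proteoglycan gene *Dcn* (decorin) followed at 90.3 (76.5 to 107) and lay below both in every liver. *Ecm1* (extracellular matrix protein 1) was at 62.4, *Bgn* (biglycan) at 35.4 and *Sparc*, a matricellular protein that binds collagen, at 29.6 CPM per kilobase. The fibrillar chains were far lower, at mean levels of 4.58 for *Col3a1*, 2.28 for *Col1a2* and 1.48 CPM per kilobase for *Col1a1*. *Lox*, a lysyl oxidase that crosslinks collagen, was the lowest member at 0.111. Per kilobase of all merged exons in place of the longest transcript, the order changed for several genes. *Dcn* was then at 27.2 CPM, below *Ecm1* at 47.0, *Bgn* at 14.1 CPM, below *Sparc* at 18.0 and *Colec11* at 18.3, and *Col1a2* at 0.983 CPM, below *Col1a1* at 1.33.

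**Figure D1:**
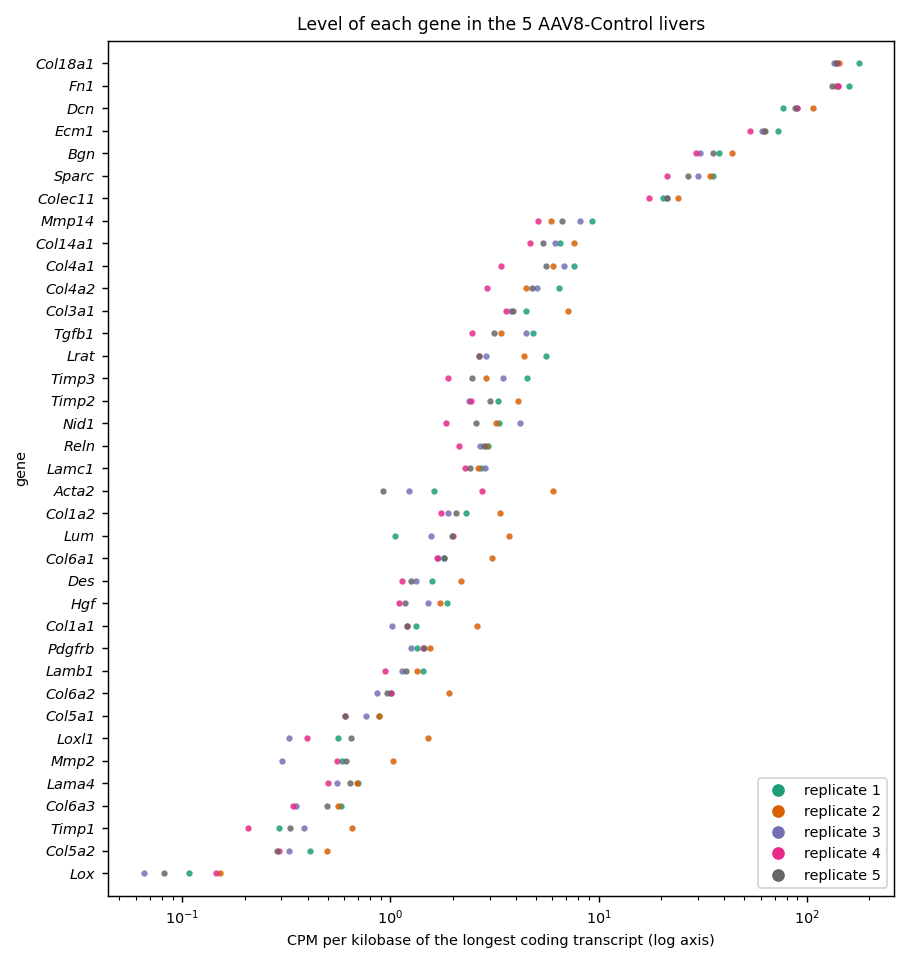
Level of each of the 37 genes in the 5 AAV8-Control livers, in CPM per kilobase of the longest coding transcript on a log axis, 1 gene per row ordered by mean level and 1 colour per replicate. Means run from 0.111 for *Lox* to 147 for *Col18a1*, and the points of *Acta2* are spread the widest.

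The typical member varied more from liver to liver than the typical gene. The coefficient of variation over the 5 livers had a median of 24.2% for the 35 expressed members and of 10.6% over all expressed genes. Without AAV8-Control replicate 2 these medians were 15.9% and 10.8%. Marker lists of other non-hepatocyte cells, read over all 5 livers only, had medians like or above the 24.2% of the members. These were 25.8% for sinusoidal endothelium, 28.8% for macrophages, 25.4% for bile duct cells, 29.0% for smooth muscle, 36.3% for mesothelium and 38.6% for portal fibroblasts. The stellate marker list had 15.2%, the activated stellate list 29.5% and the hepatocyte list 13.4%. Over all 5 livers the coefficient of variation ran from 7.38% for *Fn1* to 83.2% for *Acta2*. By role the median was 28.3% for fibrillar collagens, 26.7% for other collagens and 15.0% for glycoproteins and proteoglycans. It was 32.9% for the 5 expressed enzymes and inhibitors and 24.7% for signals, receptor and cell state. Counting alone gives a coefficient of variation of 6.95% at the reads of *Col1a1*, 28.2% at those of *Lox* and 35.4% at those of *Timp1*.

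Certain livers stood at the ends for many members. AAV8-Control replicate 2 was highest for 18 of the 35 members (51.4%), where it was highest for 12.3% of all expressed genes. AAV8-Control replicate 1 was highest for 15 members (42.9%), beside 37.8% of all expressed genes, and AAV8-Control replicate 3 for 2, *Lamc1* and *Nid1*. AAV8-Control replicate 4 was lowest for 22 members (62.9%), beside 31.7% of all expressed genes. The 18 members highest in replicate 2 included all 5 fibrillar chains, *Col6a1*, *Col6a2* and *Col14a1*, the small proteoglycans *Dcn*, *Lum* and *Bgn*, and *Acta2*, *Des* and *Pdgfrb*. Those highest in replicate 1, a share near that of all expressed genes, included both collagen IV chains, *Col18a1*, *Fn1*, *Lamb1*, *Lama4*, *Lrat*, *Reln*, *Hgf* and *Tgfb1*. With median-of-ratios scaling, *Reln*, *Lama4*, *Sparc* and *Col6a3* were highest in replicate 2 instead. These counts are a description of 5 livers, with no test.

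**Figure D2:**
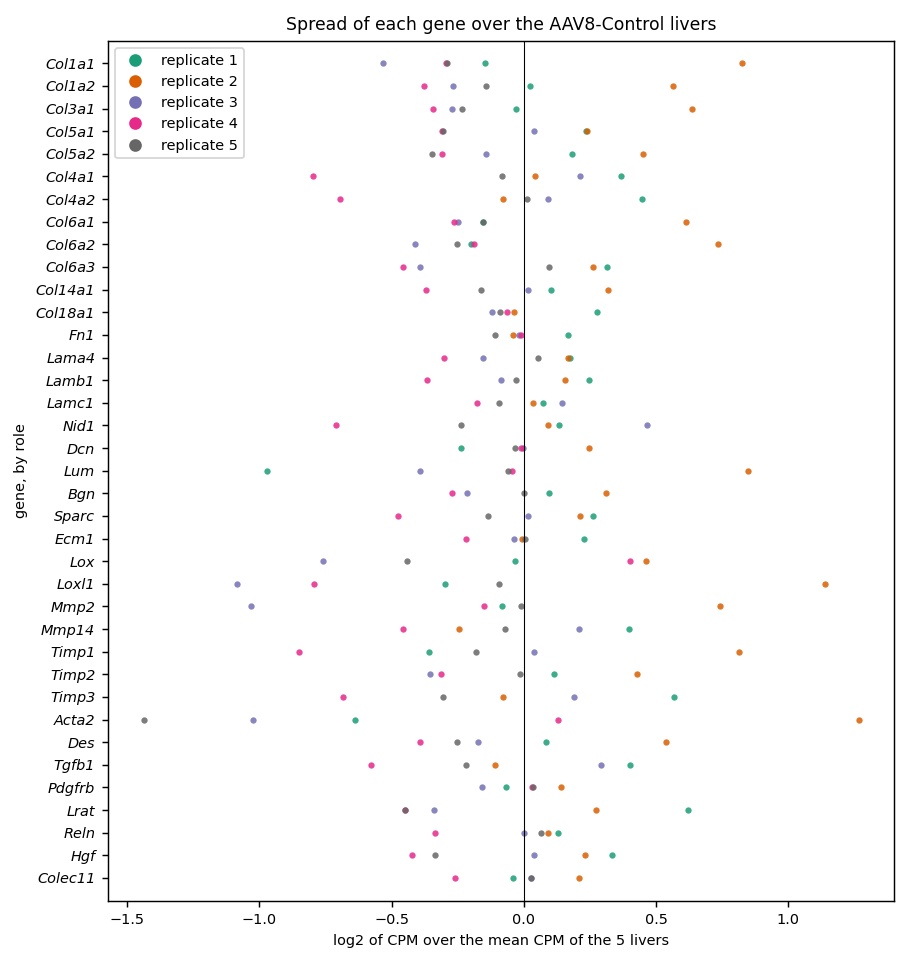
CPM of each of the 37 genes in each AAV8-Control liver relative to the mean of the 5 livers, on a log2 scale, with genes in order of role and 1 colour per replicate. Replicate 2 lies at the right for 18 of the 35 expressed members, and replicate 4 at the left for 22.

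Fibrillar collagens form the tensile fibres of scar and of the portal tracts. The collagen I chain *Col1a1* lies on chromosome 11 from 94936224 to 94953042 of GRCm38, as do all positions here. *Col1a1* was at 7.90, 15.5, 6.06, 7.14 and 7.15 CPM in AAV8-Control replicates 1 to 5. Replicate 2 was the highest liver, 2.56 times the lowest, and the other 4 lay within 6.06 to 7.90 CPM. The mean was 8.75 ± 3.83 CPM (SD, n = 5 livers).

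The collagen III chain *Col3a1*, which is made early in scar formation, lies on chromosome 1 from 45311538 to 45349706. *Col3a1* was at 24.97, 39.6, 21.1, 20.05 and 21.7 CPM in AAV8-Control replicates 1 to 5, with a mean of 25.5 ± 8.10 CPM (SD, n = 5 livers). Here too replicate 2 stood above the other 4, which were close to each other. *Col1a2*, the partner chain of *Col1a1*, averaged 12.2 ± 3.45 CPM and ranged 1.92-fold. The collagen V chains *Col5a1* and *Col5a2*, which set fibre diameter, averaged 6.28 ± 1.17 and 2.40 ± 0.592 CPM.

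**Figure D3:**
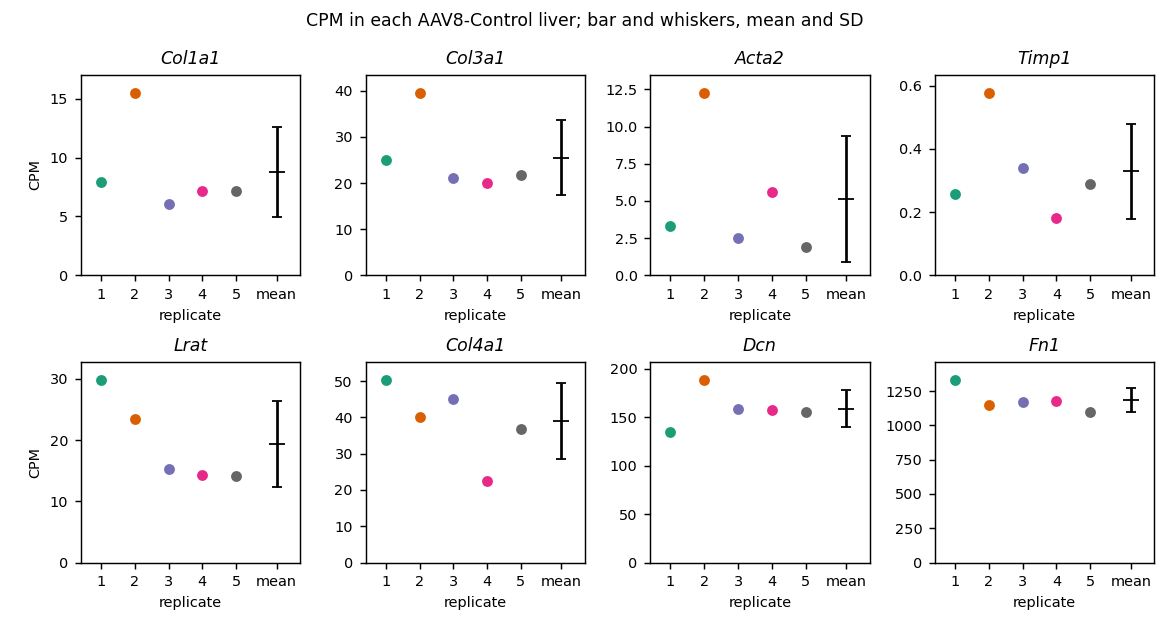
CPM of 8 genes in each of the 5 AAV8-Control livers, 1 point per replicate, with the mean and SD over livers as a bar with whiskers. Replicate 2 is highest for *Col1a1* (15.5 CPM), *Col3a1* (39.6 CPM) and *Acta2* (12.3 CPM), while replicate 1 is highest for *Lrat* (29.8 CPM), *Col4a1* (50.3 CPM) and *Fn1* (1331 CPM).

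Most chains that assemble into 1 molecule kept their ratio more closely than their levels. The ratios are of CPM, not corrected for length, and only their range over livers is described. The ratio of *Col1a1* to *Col1a2* was 0.636, 0.859, 0.597, 0.7597 and 0.646 in AAV8-Control replicates 1 to 5, a 1.44-fold range, where *Col1a1* itself ranged 2.56-fold. Replicate 2, with the most of both chains, also had the highest ratio. The ratio of *Col1a1* to *Col3a1*, chains of different molecules, ran from 0.287 to 0.392, a 1.36-fold range. A steady ratio was thus not particular to chains of 1 molecule. The ratio of *Col4a1* to *Col4a2* ran from 1.19 to 1.39, a 1.17-fold range, where the levels of these chains ranged 2.24-fold and 2.21-fold. *Col6a1* to *Col6a2* had ratios of 1.41 to 1.72, and *Col5a1* to *Col5a2* of 2.26 to 2.97. An exception was *Col6a1* to *Col6a3*, with ratios of 1.26 to 2.23, a 1.77-fold range beside 1.83-fold and 1.71-fold for the chains. For the laminin chains *Lamb1* and *Lamc1* the ratio ran from 0.303 to 0.401, a 1.32-fold range, and *Lamc1* alone ranged 1.25-fold. With 5 livers no correlation was computed.

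Among the other collagens, network-forming collagen IV is the backbone of basement membranes. Its chain *Col4a1* lies on chromosome 8 from 11198423 to 11312826 and *Col4a2* on chromosome 8 from 11312805 to 11449287, on opposite strands. *Col4a1* was at 50.3, 40.1, 45.1, 22.4 and 36.8 CPM in AAV8-Control replicates 1 to 5, with a mean of 38.9 ± 10.6 CPM (SD, n = 5 livers). Replicate 4 was the lowest for both chains and replicate 1 the highest, so the order differed from that of *Col1a1*. *Col4a2* averaged 30.6 ± 8.16 CPM. The first exons of the pair share 22 bases at chr8:11312805-11312826, shown here on the forward strand because the 2 genes start from it in opposite directions.
Col4a1 and Col4a2: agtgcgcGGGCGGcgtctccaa
Capitals again mark GGGCGG. The reads carry no strand and only unambiguous ones were counted, so reads on these 22 bases, 0.295% of the exon bases of *Col4a1*, may be missing from both genes.

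*Col18a1* was at 993, 799.6, 755, 785 and 770 CPM in AAV8-Control replicates 1 to 5. Replicate 1 stood above the other 4, and the mean was 821 ± 97.6 CPM (SD, n = 5 livers). *Col6a1* and *Col6a2* averaged 8.23 ± 2.44 and 5.36 ± 2.001 CPM with replicate 2 the highest for both. *Col6a3* averaged 4.70 ± 1.14 CPM with replicate 1 the highest. *Col14a1*, a collagen on fibre surfaces, averaged 39.2 ± 7.05 CPM.

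The 10 matrix glycoproteins and proteoglycans ranged from 0.617 CPM per kilobase for *Lama4* to 142 for *Fn1* on average. *Fn1* lies on chromosome 1 from 71585520 to 71653200. *Fn1* was at 1331, 1149.7, 1169.6, 1175 and 1097 CPM in AAV8-Control replicates 1 to 5, with a mean of 1184 ± 87.4 CPM (SD, n = 5 livers). Its livers lay within 1.21-fold of each other, the smallest range of the members.

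Laminins are the cross-shaped proteins of the basement membrane, and nidogen, encoded by *Nid1*, links them to collagen IV. *Lamb1* averaged 6.999 ± 1.12 CPM, *Lamc1* 19.7 ± 1.75 CPM and *Nid1* 18.4 ± 5.32 CPM (SD, n = 5 livers each). Replicate 4 was the lowest liver for these genes, as it was for collagen IV.

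Decorin binds collagen fibres and TGF-beta, and stellate cells are its main source in liver. *Dcn* was at 135, 188, 158, 157 and 155 CPM in AAV8-Control replicates 1 to 5, with a mean of 159 ± 19.2 CPM. Replicate 1 was the lowest liver for *Dcn* and *Lum*, although it was highest for 15 other members. *Lum*, the related proteoglycan lumican, ranged 3.53-fold, from 2.56 to 9.05 CPM. *Ecm1*, known to hold TGF-beta in its latent form in the liver, was at 139, 118, 115, 102 and 119 CPM in AAV8-Control replicates 1 to 5, with a mean of 119 ± 13.2 CPM. *Bgn* averaged 85.7 ± 14.2 CPM and *Sparc* 68.1 ± 13.2 CPM.

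Enzymes and inhibitors of matrix turnover spanned mean levels from 0.111 CPM per kilobase for *Lox* to 7.04 for *Mmp14*. *Mmp14*, a membrane protease that cleaves collagen and activates gelatinase A, averaged 22.8 ± 5.42 CPM. Gelatinase A itself, encoded by *Mmp2*, averaged 1.90 ± 0.809 CPM. *Loxl1*, a lysyl oxidase, was at 1.85, 5.01, 1.07, 1.31 and 2.13 CPM in AAV8-Control replicates 1 to 5, a 4.68-fold range with replicate 2 far above the rest.

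The inhibitor *Timp1*, which is induced in fibrotic liver, was at 0.256, 0.578, 0.338, 0.182 and 0.290 CPM in AAV8-Control replicates 1 to 5, on 5 to 12 reads per library. Its spread, 45.7%, was not far above the 35.4% that counting alone gives. *Lox* averaged 0.525 ± 0.182 CPM on 8 to 19 reads. *Timp2* averaged 11.3 ± 2.59 CPM. *Timp3*, an inhibitor bound to the matrix, averaged 14.4 ± 4.74 CPM. That value is uncertain and may be too low, since 1733 of its exon bases (21.3%) are also exon of *Syn3* on the opposite strand, where reads without strand are ambiguous and were not counted.

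The marker of contractile stellate cells, *Acta2*, varied the most of the members. It encodes smooth muscle actin, which vessel walls express too, and lies on chromosome 19 from 34241090 to 34255590. *Acta2* was at 3.28, 12.3, 2.51, 5.58 and 1.88 CPM in AAV8-Control replicates 1 to 5, with a mean of 5.11 ± 4.25 CPM (SD, n = 5 livers). Replicate 2 held 6.51 times the level of replicate 5, on 39 to 255 reads, and replicate 4 was the next highest. Without replicate 2 the mean of *Acta2* was 3.31 CPM.

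Desmin, encoded by *Des*, is an intermediate filament of stellate and muscle cells. *Des* was at 4.82, 6.60, 4.03, 3.46 and 3.82 CPM in AAV8-Control replicates 1 to 5, again with replicate 2 the highest. *Pdgfrb*, which receives the PDGF signal that makes stellate cells divide and migrate, was at 7.28, 8.43, 6.85, 7.80 and 7.83 CPM. Its coefficient of variation, 7.85%, was close to the 7.31% that counting alone gives. TGF-beta 1, encoded by *Tgfb1*, is the principal inducer of collagen in stellate cells. *Tgfb1* was at 10.6, 7.41, 9.78, 5.36 and 6.86 CPM in AAV8-Control replicates 1 to 5, so its highest liver was not that of the fibrillar collagens.

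*Lrat* encodes the enzyme that esterifies retinol for storage and marks resting stellate cells. It lies on chromosome 3 from 82892579 to 82903973. *Lrat* was at 29.8, 23.4, 15.3, 14.2 and 14.2 CPM in AAV8-Control replicates 1 to 5, with a mean of 19.4 ± 6.97 CPM (SD, n = 5 livers). Replicates 1 and 2 were high and the other 3 were near each other.

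Further genes of resting stellate cells varied less. *Reln*, which encodes the secreted protein reelin, was at 34.4, 33.6, 31.5, 24.97 and 33.0 CPM in AAV8-Control replicates 1 to 5. *Hgf*, the growth factor that stellate cells send to hepatocytes, was at 6.46, 6.02, 5.27, 3.83 and 4.06 CPM in AAV8-Control replicates 1 to 5. *Colec11*, which encodes a soluble collectin, was at 28.9, 34.4, 30.3, 24.8 and 30.3 CPM in AAV8-Control replicates 1 to 5. Replicate 4 was the lowest liver for all 3 genes. Their coefficients of variation were 12.0%, 22.7% and 11.5%, beside 35.96% for *Lrat*.

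Summed levels of cell type markers varied with the livers too. For stellate cells the 23 markers, 8 of them members, summed to 585 to 683 CPM, highest in replicate 2 and lowest in replicate 4. The activated stellate or myofibroblast list, 6 of whose 12 genes are members, summed to 93.5 to 163 CPM. Replicate 2 was highest for 8 of the 10 lists, which besides these were portal fibroblasts (25.2 to 48.4 CPM), smooth muscle (71.5 to 92.9 CPM), mesothelium (8.37 to 20.2 CPM), macrophages (202 to 412 CPM), bile duct cells (55.2 to 80.02 CPM) and lymphocytes (1.89 to 4.86 CPM). The sinusoidal endothelial list summed to 613, 433, 511, 305 and 422 CPM in AAV8-Control replicates 1 to 5. Its highest and lowest livers were those of *Col4a1*, and replicate 4 was the lowest for all 15 of its genes. Over all expressed genes too, replicate 1 was most often the highest (37.8%) and replicate 4 most often the lowest (31.7%). A sum of TGF-beta and PDGF signalling genes had the same end livers. Some sums were led by 1 gene, as that of smooth muscle by *Mylk* (73.6% of it) and that of bile duct cells by *Spp1* (52.0%). *Spp1* and *Tagln* are also on the activated stellate list, and *Krt19* on those of bile duct cells and mesothelium. Counted by gene, replicate 1 was highest for 12 and replicate 2 for 9 of 23 stellate markers. Replicate 2 was highest for 9 of 12 activated stellate, 8 of 11 portal fibroblast and 7 of 9 smooth muscle markers. It was highest for 3 of 7 mesothelial, 11 of 12 macrophage, 5 of 11 bile duct and 6 of 9 lymphocyte markers. Without the leading gene of each list, replicate 2 was no longer highest for the stellate list, where replicate 1 was. Hepatocyte markers summed to 107035 CPM in replicate 1, the lowest, and to 143591 CPM in replicate 4, the highest, but *Alb*, albumin, made up 77.5% of that sum. Without *Alb* the lowest liver was replicate 3, and replicate 4 was still the highest. Of the 11 hepatocyte markers, 6 were highest in replicate 4, and 3, 3 and 4 were lowest in replicates 1, 2 and 3. The part of cell makeup in the members' spread was not tested.

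Genes of the wider matrix pathway were read from 4 lists. Of 27 genes of collagen maturation and secretion, 21 were expressed, with a median coefficient of variation of 9.94%. *P4hb*, the disulphide isomerase that is also a subunit of prolyl hydroxylase, had the highest level of that list, 587 CPM per kilobase. Of 53 other matrix structural genes listed, 36 were expressed, with a median of 24.8%, and *Vtn*, vitronectin, a plasma protein made by hepatocytes, was the highest at 981 CPM per kilobase. Matrix breakdown and its inhibitors had 17 of 32 with a median of 16.4%, led by the lysosomal protease gene *Ctsb* at 168 CPM per kilobase. Signalling by TGF-beta and PDGF had 28 of 31 with a median of 18.8%, led by *Tgfbi*, a matrix protein induced by TGF-beta, at 10.8 CPM per kilobase. These 4 genes were named after their values were seen. *Col6a4* was not analysed here.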

How the data were processed

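RNA-seq was analysed in livers of *db/db* mice, 5 of the AAV8-Control group. The authors selected poly-A RNA, sequenced single reads, aligned them with STAR 2.0.4b to GRCm38.p2 (Ensembl) and counted unique, unambiguous alignments with featureCounts 1.4.5. They deposited CPM, with a step from counts to CPM that is not given in the sources used here. In each library 100% of the CPM values were whole reads divided by the total, to within 0.01 of a read, so reads could be recovered. The table's 15236 lines hold 15126 genes, and 110 lines repeat a gene. Libraries were not strand-marked. Tests made with the other samples of the series are not reported here.

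Levels are means ± SD over livers, and the coefficient of variation is the SD as a percent of the mean. The share that counting alone gives was computed from the mean of the recovered reads, and covers counting error only. The labels do not say how livers were separated beyond their replicate numbers, so the spread may be technical. Chi-square per degree of freedom was at least 15.9 for any 2 libraries, so none was a duplicate. Positions and transcript lengths came from GENCODE M21.

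The members and lists were chosen with earlier results of these data known. Values in every liver are given for 15 genes fixed by role, and for *Col18a1* and *Loxl1*, which were added after their values were seen, as were other genes named. Other settings, added after values were seen, were median-of-ratios scaling and each liver left out.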

Additional observations from a re-analysis of the deposited data

Results flagged for a closer look

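In 6 of the 37 members examined, all 6 of them among the 35 expressed ones (17.1%), 1 liver lay far from the other 4, by the gap to its nearest neighbour relative to the range. The same held for 5.78% of all 11041 expressed genes, 4.10% at the high end and 1.68% at the low end. Chance flags about 1 in 20 groups, and the members are not independent of each other. All 6 were the highest liver. AAV8-Control replicate 2 held 15.5 CPM of *Col1a1*, where the next liver held 7.90 CPM. It held 39.6 CPM of *Col3a1* (next 24.97 CPM), 12.6 CPM of *Col6a1* (next 7.39 CPM), 8.91 CPM of *Col6a2* (next 4.70 CPM) and 5.01 CPM of *Loxl1* (next 2.13 CPM). For *Col18a1* it was AAV8-Control replicate 1, with 993 CPM where the next liver held 799.6 CPM.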

How the results depend on the processing

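For the 17 genes given in every liver, median-of-ratios scaling changed the mean level by -0.628% to 0.688%. Leaving out 1 liver changed it by -35.1% to 15.8%, and by over 1.5 times for 1 of 85 values, *Acta2* without AAV8-Control replicate 2 (3.31 CPM). Members highest in AAV8-Control replicate 2 numbered 22 with median-of-ratios scaling and 18 to 26 with another liver left out, the most without AAV8-Control replicate 1. The median coefficient of variation of the members was 22.6% with that scaling, and ran from 15.9% without AAV8-Control replicate 2 to 26.97% without AAV8-Control replicate 5. No paired analysis was possible because the values described come from 1 group and from no test. Depth limits *Timp1* and *Lox*, at 5 to 19 reads per library.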
